A study of Drosophila melanogaster with 8 samples.

Results

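The 7 genes described here form the core of the Drosophila JAK-STAT pathway: the ligand genes upd1, upd2 and upd3, the receptor gene dome, the Janus kinase gene hop, the transcription factor gene Stat92E and the inhibitor gene Socs36E. They were chosen by their symbols in the table of 11397 genes that the authors compared, and all 7 were found by their FlyBase identifiers among the 14094 genes with an abundance. Of these 7, the 4 genes dome, hop, Stat92E and Socs36E had a mean of at least 1 TPM (a relative abundance that is corrected for transcript length and sums to the same total in each library), whereas upd1, upd2 and upd3 were below 1 TPM.

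In this pathway, secreted Unpaired proteins bind the receptor Domeless, the receptor-bound kinase Hopscotch is activated, and phosphorylated Stat92E enters the nucleus and switches on target genes. Socs36E is itself a target and dampens the signal. In the fly ovary the pathway is known for acting in somatic escort cells beside the germline stem cells, where it maintains expression of the BMP ligand gene dpp, and later in follicle cells around the polar cells that secrete Unpaired.

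RNA was measured in ovaries of Drosophila melanogaster enriched by genetic tools for cells like germline stem cells (GSC-like cells), to ask how extra Stonewall (Stwl), a DNA-binding protein, alters their gene expression. There were 4 libraries with Stwl overexpression, titled StwlEY, and 4 control libraries without it. Each came from about 35 ovaries of females 4 to 5 days old. The alleles, the drivers and the tools that enriched the cells in both groups do not appear in the labels, so a difference of genetic background and an effect of Stwl cannot be told apart. The labels do not call the replicates separate crosses. The p-values then reflect only how these libraries spread, which may be technical.

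The overexpressed gene stwl stood at 45.5, 55.5, 62.6 and 67.8 TPM in the overexpression libraries and at 25.1, 21.9, 23.6 and 23.5 TPM in the controls. Across the table, 8898 genes had a mean of at least 1 TPM and were tested with limma on log2(TPM + 1), and genes passed at an adjusted p of 0.05. In this test 6.2% of the genes were higher and 2.18% lower with Stwl overexpression. The balance depended on scaling: 552 genes were higher and 194 lower as deposited, 806 and 626 with median-of-ratios scaling, and 663 and 715 with quantile normalization. None of the 4 tested JAK-STAT genes was among them, and 0 of 4 had an unadjusted p under 0.05 in limma. None of the members passed in the authors' deposited table either, which gives upd2 no adjusted p. The libraries hold more than germline. The germline helicase gene vas was at 264.1 to 389.1 TPM with Stwl overexpression and at 384.8 to 410.2 TPM in controls, and the follicle and polar cell adhesion gene Fas3 was at 231.2 to 319.7 TPM with Stwl overexpression and at 219.4 to 248.1 TPM in controls. In such mixed tissue, fewer cells of a type and less RNA per cell cannot be told apart.

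The ligand genes were close to the lower end of detection in every library. Abundance of upd1, the ligand secreted by polar cells, was 0.564, 0.403, 0.424 and 0.614 TPM with Stwl overexpression and 0.383, 0.449, 0.726 and 0.326 TPM in controls. The groups overlapped, and the highest and lowest values were both controls. For upd3, known as an injury and infection cytokine of hemocytes and gut, the overexpression libraries had 0.242, 0.255, 0.392 and 0.811 TPM and the controls 0.325, 0.414, 0.744 and 0.802 TPM. The range of upd3 was wide within each group, and its 2 lowest values were overexpression replicates 1 and 2. In both groups, however, replicates 3 and 4 were above replicates 1 and 2. The ligand gene upd2, known in the fly fat body as a nutrient-dependent signal, was listed at 0, 0, 0.11 and 0.162 TPM with Stwl overexpression and at 0.0559, 0, 0.135 and 0 TPM in controls.

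None of the 3 ligand genes reached 1 TPM in any library. The exact permutation tests of their mean TPM, 2-sided, gave p = 0.8 for upd1, 0.829 for upd2 and 0.343 for upd3, where 0.0286 is the smallest value possible with 4 libraries a group. With no filter on abundance, limma gave log2 fold changes of 0.03 for upd1 (95% confidence interval -0.18 to 0.24, adjusted p = 0.889), 0.03 for upd2 (-0.12 to 0.17, adjusted p = 0.877) and -0.15 for upd3 (-0.49 to 0.19, adjusted p = 0.679). These fold changes are on the log2(TPM + 1) scale and so are compressed at such low levels. The authors' deposited table gives mean normalized counts of 25.7 for upd1, 21.6 for upd3 and 2.02 for upd2, and its log2 fold change for upd3 is -0.50 with a standard error of 0.483. A difference of that size was not detectable at these counts.

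The receptor, kinase and STAT genes were abundant by comparison. Stat92E lay at the 84.5th percentile of tested genes by mean TPM, dome at the 71.4th, hop at the 60.0th and Socs36E at the 28.6th. In each of the 8 libraries the order of TPM levels was Stat92E, dome, hop, Socs36E. The ranges of dome and hop over all libraries overlapped, since the lowest dome value was 41.4 TPM and the highest hop value 44.4 TPM. The ranges of hop and Socs36E did not, and neither did those of Stat92E and dome. Between upd1 and upd3 there was no fixed order, as upd3 was above upd1 in 3 of 8 libraries.

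**Figure D1:**
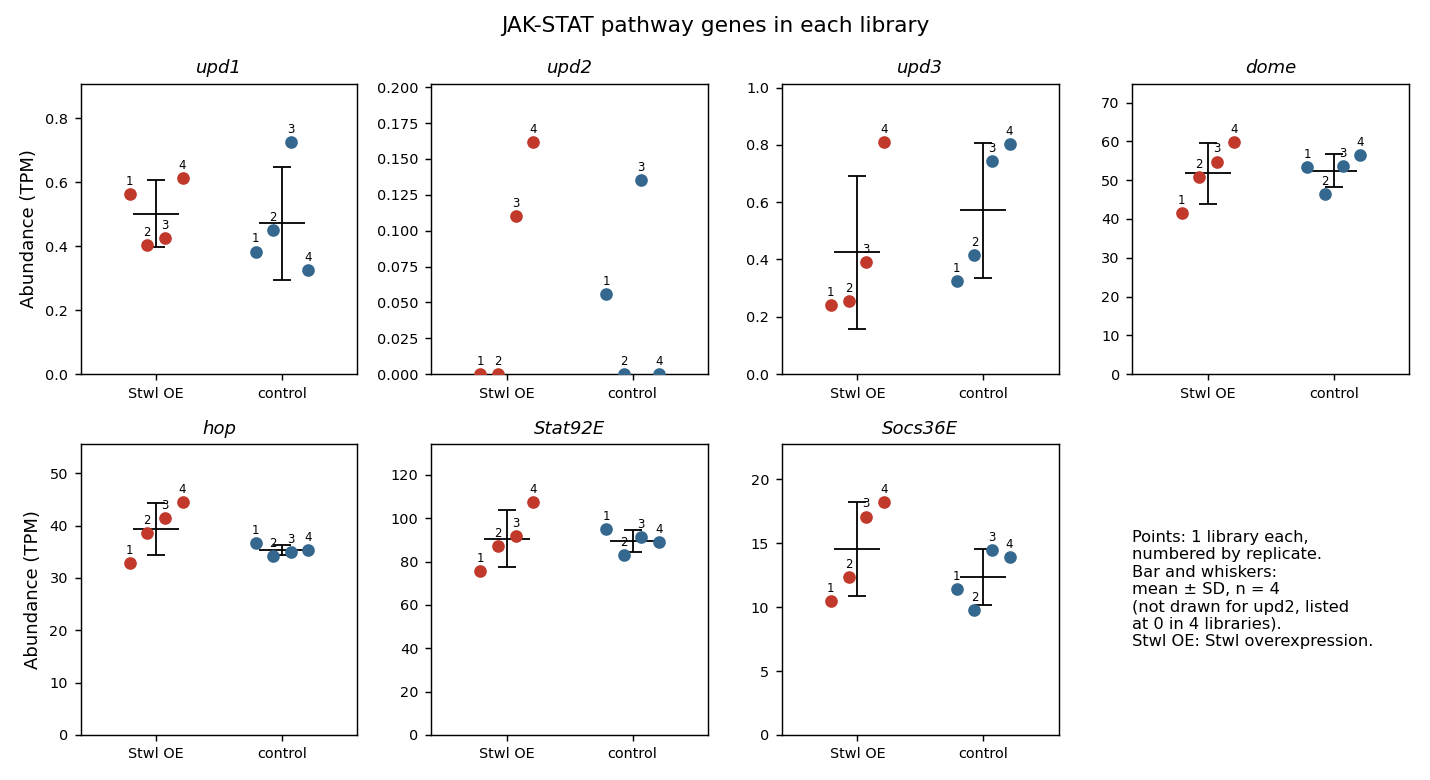
Abundance (TPM, linear axes from 0, a separate scale in each panel) of the 7 JAK-STAT genes in every library, with Stwl overexpression (Stwl OE) left and control right; points are libraries numbered by replicate, and bars and whiskers are the mean ± SD of 4 libraries (none for upd2). The groups overlap in every panel, the ligand genes stay below 1 TPM, and overexpression replicate 1 is the lowest library for dome, hop and Stat92E.

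Abundance of dome, which encodes the Unpaired receptor, was 41.4, 50.9, 54.8 and 59.9 TPM with Stwl overexpression and 53.4, 46.3, 53.7 and 56.4 TPM in controls. The overexpression libraries held both the lowest and the highest value, and their mean of 51.8 ± 7.81 TPM compares with 52.4 ± 4.33 TPM in controls (SD, n = 4 each). The log2 fold change was -0.03 with a 95% confidence interval of -0.28 to 0.22, and dome did not pass (adjusted p = 0.928 in limma).

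The kinase gene hop was at 32.8, 38.5, 41.5 and 44.4 TPM with Stwl overexpression and at 36.7, 34.2, 35.0 and 35.4 TPM in controls. Overexpression replicates 2 to 4 were above every control and replicate 1 was below every control. The log2 fold change of 0.14 (95% confidence interval -0.06 to 0.34) did not pass in limma, with an adjusted p of 0.43. The call depended on overexpression replicate 1. Without that library the log2 fold change of hop was 0.22 with an adjusted p of 0.0465 in limma, where 11.1% of all tested genes were called higher. Library weights were also estimated in limma from how closely the values of each library followed the fit. With these weights hop had a log2 fold change of 0.23 and an adjusted p of 0.00418, where 25.8% of genes were called higher. Replicate 1 then had a weight of 0.15, against 7.29 for overexpression replicate 3. For hop, the authors' deposited table has a log2 fold change of 0.11 (standard error 0.0493) that did not pass, at an adjusted p of 0.0903.

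Stat92E encodes the single STAT protein of the fly. It was at 75.7, 87.1, 92.0 and 107.3 TPM with Stwl overexpression, and at 95.2, 83.1, 91.5 and 89.1 TPM in controls. Again the overexpression libraries held both extremes. The mean was 90.5 ± 13.1 TPM with Stwl overexpression and 89.7 ± 5.04 TPM in controls (SD, n = 4 each), and the log2 fold change of 0.00 had a 95% confidence interval of -0.22 to 0.22 (adjusted p = 0.993 in limma). A change of Stat92E beyond 1.17-fold in either direction was outside this interval.

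Socs36E, which encodes the feedback inhibitor and is widely used as a readout of pathway activity, was at 10.5, 12.4, 17.1 and 18.2 TPM with Stwl overexpression. Controls had 11.4, 9.79, 14.5 and 13.9 TPM. Overexpression replicates 3 and 4 exceeded every control and replicates 1 and 2 lay within the control range. The mean was 14.5 ± 3.67 TPM with Stwl overexpression and 12.4 ± 2.19 TPM in controls (SD, n = 4 each). The log2 fold change of 0.20 did not pass (adjusted p = 0.618 in limma), and its 95% confidence interval of -0.21 to 0.61 was the widest of the 4 genes tested. In controls as well, replicates 3 and 4 were above replicates 1 and 2.

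The 4 abundant genes shared a pattern over the overexpression libraries that the choice of genes did not use. All 4 were lowest in overexpression replicate 1 and highest in overexpression replicate 4. That placing was common in these data, since it held for 47.6% of all tested genes. It also held for the median gene, as median-of-ratios size factors computed from TPM were 0.905, 0.982, 1.06 and 1.11 for overexpression replicates 1 to 4 and 0.944 to 1.02 for controls. After division by these factors the spread between the highest and the lowest overexpression library narrowed to 1.1-fold for hop, where it was 1.35-fold as deposited, and likewise to 1.15-fold (1.42-fold) for Stat92E, 1.17-fold (1.45-fold) for dome and 1.4-fold (1.72-fold) for Socs36E. All 4 genes were still lowest in replicate 1 and highest in replicate 4, which then held for 18.6% of tested genes.

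Scaled in this way, hop was at 36.3, 39.2, 39.0 and 39.8 TPM with Stwl overexpression and at 37.0, 36.3, 34.3 and 35.0 TPM in controls. Its lowest overexpression library thus came within the control range, and its adjusted p in limma was 0.137. Stat92E, with a log2 fold change of -0.03 after scaling, and dome, with -0.06, were both below 0 there.

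**Figure D2:**
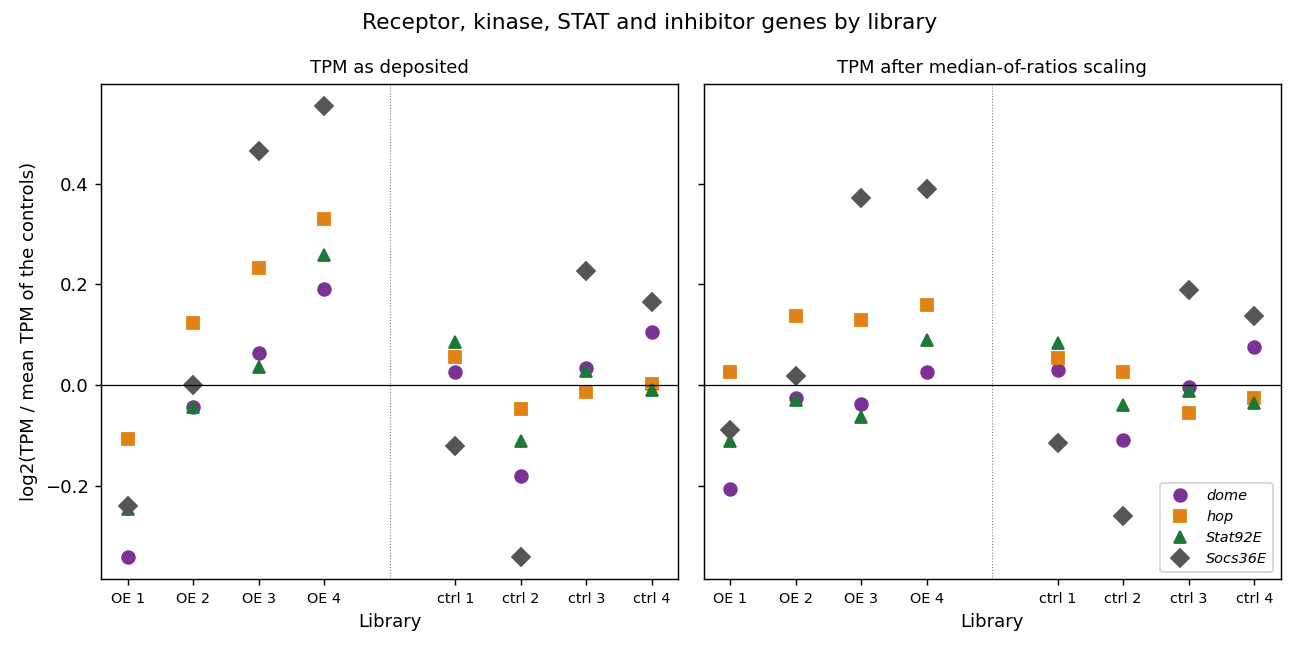
Level of dome, hop, Stat92E and Socs36E in each library as log2 of its TPM over the mean of the controls, for TPM as deposited (left panel) and after median-of-ratios scaling (right panel), with overexpression libraries (OE) left of controls (ctrl). As deposited, each gene is lowest in OE 1 and highest in OE 4 among the overexpression libraries, and the spread of hop over them is 1.35-fold as deposited and 1.1-fold after scaling.

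Ratios of these genes within a library do not depend on scaling between libraries. They were chosen after the values had been seen and are given as descriptions. The ratio of dome to Stat92E was 0.547, 0.585, 0.595 and 0.558 with Stwl overexpression and 0.561, 0.556, 0.587 and 0.632 in controls, with overlapping groups. The ratio of hop to Stat92E was 0.434, 0.443, 0.451 and 0.414 with Stwl overexpression, against 0.386, 0.412, 0.383 and 0.397 in controls. Here the groups did not overlap, nor did they for hop over dome, which was 0.741 to 0.792 with Stwl overexpression and 0.628 to 0.740 in controls. Relative to Stat92E, 11.1% of the other tested genes were higher in the overexpression libraries without overlap, and relative to dome 13.1% were. Socs36E over Stat92E was 0.139 to 0.186 with Stwl overexpression and 0.118 to 0.159 in controls, with overlap.

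The ligand genes also share a place in the genome. In assembly BDGP6 (Ensembl release 115) they lie within 68.6 kb of the X chromosome, with upd2 at X:18240654-18243284 (minus strand), upd3 at X:18277233-18284596 (plus strand) and upd1 at X:18305354-18309291 (minus strand). Between upd2 and upd3 the annotation holds 1 protein-coding gene, and between upd3 and upd1 none. The X chromosome also carries hop (X:11360930-11368098, minus strand) and dome (X:19676061-19683518, minus strand). Stat92E is at 3R:20535323-20552311 and Socs36E at 2L:18138675-18152417, both on the minus strand. The plus-strand gene lncRNA:CR44478 overlaps the Socs36E gene but shares none of its exon bases.

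A gene just beyond the 3' end of dome, et (eye transformer), encodes a shorter relative of Domeless known to inhibit the pathway. It lies at X:19672312-19675891 on the same strand, 169 bases from dome, and differed from its neighbour in pattern. Abundance of et was 2.51, 2.23, 2.44 and 2.29 TPM with Stwl overexpression and 1.66, 1.66, 1.89 and 1.55 TPM in controls. Every overexpression library was above every control, which 10.3% of tested genes also showed. The log2 fold change of 0.32 (95% confidence interval 0.07 to 0.58) did not pass in limma with equal weights, at an adjusted p of 0.132. It passed with library weights (0.32, adjusted p = 0.0172 in limma), where 25.8% of genes were called higher. It also passed in the authors' deposited table with a log2 fold change of 0.46 and an adjusted p of 0.0361. There 10.5% of genes passed as higher. The limma values are on the log2(TPM + 1) scale and so are compressed at the level of et. With a pseudocount of 0.1, limma also gave 0.46 for et, at an adjusted p of 0.146.

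The ratio of et to dome was 0.0605, 0.0439, 0.0445 and 0.0383 with Stwl overexpression and 0.0311, 0.0358, 0.0352 and 0.0275 in controls. The groups did not overlap, and 13.1% of tested genes were likewise higher relative to dome without overlap. The metabolic enzyme gene Zw overlaps et on the other strand and shares 42 of its 2411 exon bases. Whether counting used strand is not given in the sources used here. Zw was at 21.8 ± 1.20 TPM with Stwl overexpression and at 19.8 ± 0.817 TPM in controls (SD, n = 4 each, adjusted p = 0.336 in limma). The gene et was singled out after its values were seen.

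Among the list of 10 pathway regulators, none passed in limma on all 8 libraries with equal weight. With library weights et, Socs16D and Ptp61F passed as higher (adjusted p = 0.0172, 0.0253 and 0.0336 in limma), where 25.8% of genes were called higher. In the fit with equal weights, an unadjusted p under 0.05 was found for 1 of the 10, et, which was also the 1 that passed in the authors' deposited table. The median log2 fold change of the 10 was 0.05, beside 0.01 over all tested genes. The most abundant was lwr, which encodes the SUMO-conjugating enzyme, with 309.1 to 356.9 TPM in overexpression libraries and 333.3 to 349.1 TPM in controls (log2 fold change -0.04, adjusted p = 0.745). RanBP3, a Ran-binding protein gene, had a log2 fold change of -0.03 (adjusted p = 0.823) and Ptp61F, a tyrosine phosphatase gene that acts against Hop and Stat92E, one of 0.07 (adjusted p = 0.791). The further SOCS family genes Socs16D and Socs44A had values of 0.11 and 0.08, and Su(var)2-10, which encodes the PIAS-type inhibitor of STAT, a value of 0.04. The widest interval was that of Diedel, a secreted immune modulator gene, whose log2 fold change of -0.33 had a 95% confidence interval of -1.03 to 0.36.

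Of 13 genes listed as known pathway targets, 11 were abundant enough to be tested, and 3 were called higher and none lower in limma at the stated threshold, where 6.2% of all tested genes were higher and 2.18% lower. The median log2 fold change of the 11 was 0.24, beside 0.01 over all tested genes. Among the 11, TotX reached the minimum of 1 TPM only through the overexpression libraries. Its mean was 1.34 TPM there and 0.744 TPM in controls, and its log2 fold change of 0.43 lies above that median. The 3 called higher were Tep2 and Tep4, which encode complement-like thioester proteins, and dpp, the BMP ligand gene that escort cells express under JAK-STAT control.

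Tep2 was at 9.16, 10.8, 11.1 and 13.5 TPM with Stwl overexpression and at 7.96, 6.48, 8.19 and 7.5 TPM in controls, without overlap. On the log2 scale Tep2 rose by 0.50 (standard error 0.123, adjusted p = 0.036 in limma). Tep4 was at 102.5, 125.3, 135.9 and 152.7 TPM with Stwl overexpression and at 85.2, 79.2, 102.7 and 92.9 TPM in controls. Overexpression replicate 1 was just under control replicate 3, and the other overexpression libraries were above every control (log2 fold change 0.51, standard error 0.123, adjusted p = 0.0349 in limma). The gene dpp was at 3.85, 5.46, 4.83 and 3.92 TPM with Stwl overexpression and at 2.09, 3.27, 2.36 and 2.08 TPM in controls, without overlap. Of all tested genes, 10.3% were likewise higher with Stwl overexpression without overlap. The log2 fold change of dpp was 0.68 (standard error 0.153, adjusted p = 0.0254 in limma), and 0.85 in the authors' deposited table.

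With equal weights and TPM as deposited, these 3 calls were close to the threshold. Leaving out overexpression replicate 1 kept all 3 (adjusted p = 0.0111 for Tep2, 0.00557 for Tep4 and 0.0201 for dpp in limma), where 11.1% of genes were called higher. Tep2 lost its call without any other single library, with adjusted p-values of 0.0633 to 0.0967. Tep4 kept it without control replicate 3 (adjusted p = 0.0374) and lost it without each of the other 6 libraries (0.0693 to 0.0996). For dpp the call held without control replicate 2 or overexpression replicate 4 (0.0174 and 0.0381) and was lost without control 1, 3 or 4 or overexpression 2 or 3 (0.0647 to 0.0835). In the authors' deposited table all 3 passed as higher, with adjusted p-values of 5.11e-08 for Tep2, 7.19e-08 for Tep4 and 0.000427 for dpp. Of the genes with an adjusted p there, 10.5% passed as higher. Median-of-ratios scaling gave 0.0046 for Tep2, 0.00412 for Tep4 and 0.0256 for dpp in limma, where 9.06% of genes were called higher. Library weights gave 0.00125, 0.000799 and 0.00044 in limma, where 25.8% were. Quantile normalization kept Tep2 and Tep4 (0.00528 and 0.00947 in limma) and lost dpp (0.0684), where 663 of 8898 genes were called higher.

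**Figure D3:**
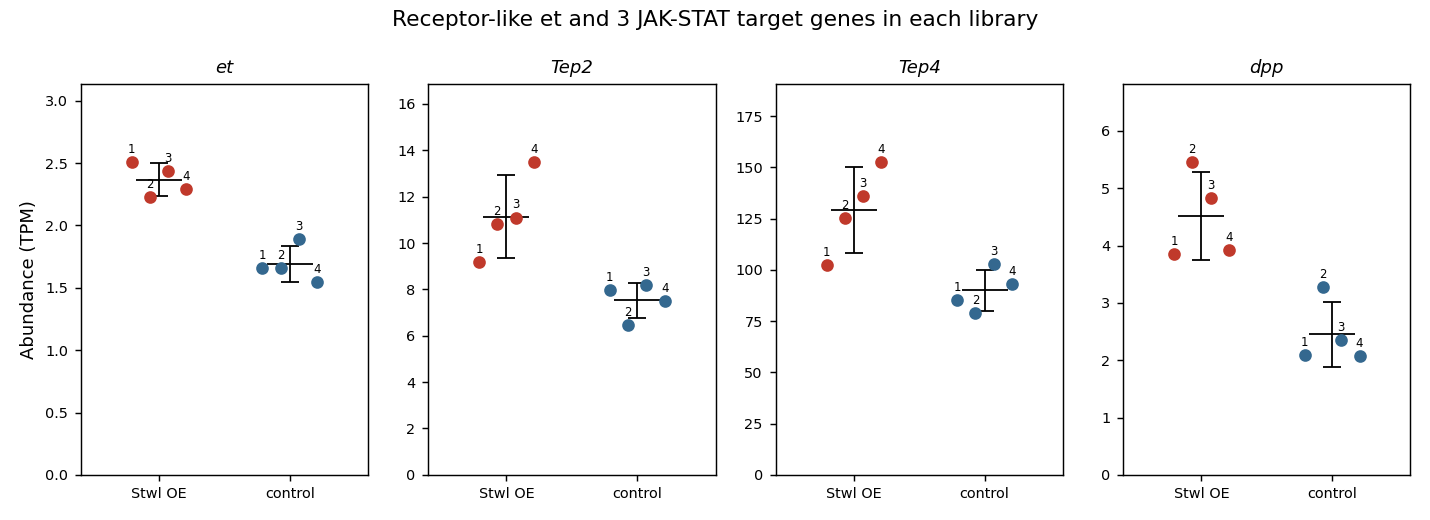
Abundance (TPM, linear axes from 0, a separate scale in each panel) of the receptor-like gene et and the target genes Tep2, Tep4 and dpp in every library, Stwl overexpression (Stwl OE) left and control right; points are libraries numbered by replicate and bars and whiskers the mean ± SD of 4 libraries. The groups are separate for et, Tep2 and dpp, while for Tep4 overexpression replicate 1 (102.5 TPM) lies just under control replicate 3 (102.7 TPM). Of all tested genes, 10.3% are separate with overexpression higher.

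Other targets gave mixed values. The most abundant listed target, vir-1, was at 152.9 to 219.3 TPM with Stwl overexpression and at 131.6 to 190.1 TPM in controls. Its log2 fold change of 0.24 did not pass (adjusted p = 0.404 in limma), nor did it with a replicate block (adjusted p = 0.0516 in limma). With library weights vir-1 passed (0.33, adjusted p = 0.0444 in limma), where 25.8% of genes were called higher. The transcription factor gene zfh1, a STAT target in somatic stem cells of the fly testis, was at 26.2, 32.4, 32.7 and 39.6 TPM with Stwl overexpression and at 30.3, 25.8, 28.0 and 29.1 TPM in controls. Its log2 fold change was 0.19 (adjusted p = 0.401 in limma). With library weights zfh1 had 0.22 (adjusted p = 0.0237 in limma), where 25.8% of genes were called higher. The border cell regulator apt had a log2 fold change of 0.27 (adjusted p = 0.159 in limma). It passed without overexpression replicate 1 (0.36, adjusted p = 0.00925 in limma), where 11.1% of genes were called higher. It also passed after median-of-ratios scaling (0.24, adjusted p = 0.0228 in limma), where 9.06% of genes were called higher. With quantile normalization apt passed too (0.24, adjusted p = 0.0389 in limma), where 663 of 8898 genes were called higher. Library weights gave apt 0.29 (adjusted p = 0.00308 in limma), where 25.8% of genes were called higher. The authors' deposited table gives apt an adjusted p of 0.00122, where 10.5% of genes passed as higher. The STAT target chinmo pointed the other way, with a log2 fold change of -0.40 (adjusted p = 0.303 in limma), and passed as lower in the authors' deposited table (log2 fold change -0.51, adjusted p = 0.0309), where 8.4% of genes did so. Levels of chinmo were 4.74, 6.0, 7.76 and 8.26 TPM with Stwl overexpression and 13.0, 7.13, 8.26 and 8.38 TPM in controls. All of these targets were on the list but were named after their values were seen.

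The stress-induced Turandot genes varied widely within groups. TotA was at 25.6, 12.5, 10.6 and 11.1 TPM with Stwl overexpression and at 33.1, 23.0, 11.7 and 2.99 TPM in controls, and the confidence interval of its log2 fold change was -1.27 to 1.42. The target genes slbo and Tep1 were below 1 TPM on average. Tep1 was at 0.0924, 0.299, 0.273 and 0.367 TPM with Stwl overexpression and at 0.0386, 0.0499, 0 and 0.0318 TPM in controls, a separation at levels that few reads carry. The authors' deposited table gives Tep1 a log2 fold change of 3.01 and an adjusted p of 0.000155 on a mean normalized count of 14.6. There 10.5% of genes passed as higher. For Tep1, limma with no filter gave an adjusted p of 0.0453, where 4.21% of genes were called higher.

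**Figure D4:**
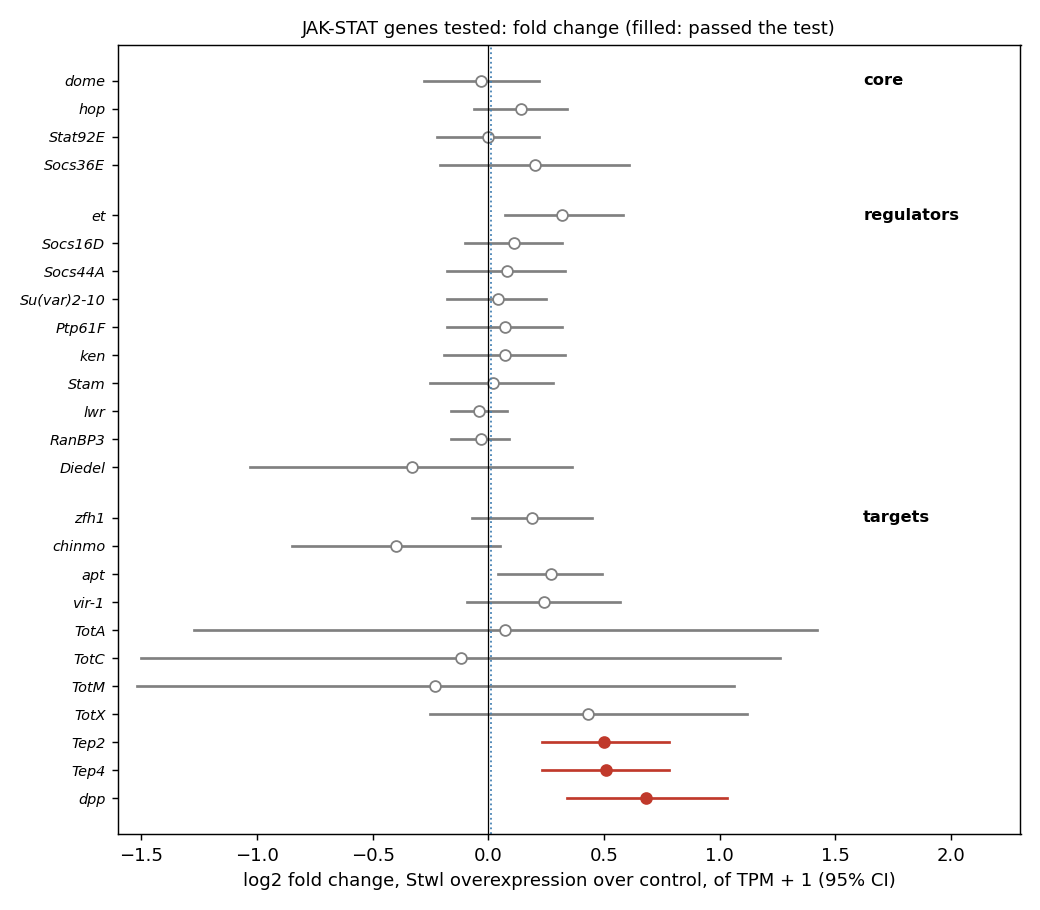
Log2 fold change of TPM + 1 (Stwl overexpression over control, x axis) with 95% confidence interval for the 4 core genes, 10 regulators and 11 targets that were tested with limma; filled points passed at an adjusted p of 0.05, and the dotted line is the median of all tested genes (0.01). Only Tep2, Tep4 and dpp are filled here, and the intervals of dome, hop, Stat92E and Socs36E all span 0.

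Markers of hemocytes and of the muscle sheath were also higher, where 6.2% of all tested genes were called higher and 2.18% lower. Of 6 hemocyte markers 4 were higher and their summed level was 56.2 to 78.7 TPM with Stwl overexpression and 35.0 to 42.2 TPM in controls. None was at 0 in all libraries, and the hemocyte gene Hml was at 4.47 to 8.34 TPM with Stwl overexpression and at 2.54 to 3.7 TPM in controls. All 6 muscle sheath markers were higher, with sums of 1601.1 to 1957.7 TPM with Stwl overexpression and 954.1 to 1258.6 TPM in controls. None of 5 tested escort and cap cell markers passed, with a smallest adjusted p of 0.0503 in limma, and their list summed to 356.7 to 413.8 TPM with Stwl overexpression and 316.5 to 383.1 TPM in controls. Of these 5, the 3 genes Wnt4, ptc and fax had an unadjusted p under 0.05, all higher, and the same 3 passed in the authors' deposited table. None of 4 tested genes listed for polar and stalk cells (Fas3, neur, cas and eya) passed. That list summed to 296.4 to 404.2 TPM with Stwl overexpression and 284.5 to 324.2 TPM in controls. Fas3 made up most of the sum, and the list is not restricted to these cells. There Fas3, higher, and neur, lower, had an unadjusted p under 0.05 and passed in the authors' deposited table. Of 8 germline markers 1 was lower, and the sum was 675.2 to 977.3 TPM with Stwl overexpression and 922.7 to 1000.4 TPM in controls. Their median log2 fold change was -0.21. An unadjusted p under 0.05 was found for 3 of them, and 4 (vas, aub, ovo and bgcn) passed as lower in the authors' deposited table. Of 3 tested fat body markers 1 was lower, Obp99a, while Fbp2 had a log2 fold change of 1.31 (unadjusted p = 0.0112, adjusted p = 0.0936 in limma), and the list summed to 46.6 to 118.2 TPM with Stwl overexpression and 59.4 to 105.1 TPM in controls. The part of these cell types in the values of Tep2, Tep4, dpp and et was not tested.

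The authors' deposited table has a mark for genes with a Stwl peak no farther than 1 kb from the gene body. It marks a peak for dome, hop, Stat92E and Socs36E and none for upd1, upd2, upd3 or et. Such a mark is common, as 79.5% of the genes tested here carry it and 53.2% of the less abundant genes. Among the targets called higher, Tep2, Tep4 and dpp all carry it. The table also names genes that were upregulated in other studies, whose conditions it does not give. It names hop and Socs36E for both studies, Stat92E and upd3 for Kotb et al., dome for Zinshteyn et al., and neither upd1 nor upd2, where 21.2% of all its genes have a study named. No member is marked Up or Down in that table, where 3.46% of genes are marked Up and 1.35% Down. Outside the members, dpp and Tep1 are marked Up, while Tep2, Tep4 and et have neither mark. Both studies are named for et, Tep2, Tep4 and dpp, and none for Tep1.

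Genes with the most similar profile over the 8 libraries were found by the root mean square distance of centred log2(TPM + 1) values, as a description. Nearest to Stat92E were brun and DIP2 (0.0147 and 0.0249), and to hop Marf and Rho1 (0.0208 and 0.0213). Chd3 was among the nearest to dome (0.0236). Socs36E had no neighbour as close, with scyl at 0.0523 and CG8026 at 0.0572. Among the members themselves dome and Stat92E were the closest pair, at 0.0625, and Socs36E and Stat92E the farthest, at 0.196. The median distance of all tested genes was 0.139 to Stat92E and 0.246 to Socs36E. By nearness among tested genes, dome had rank 502 for Stat92E. Stat92E had rank 339 for dome and rank 1962 for Socs36E. The distances used TPM as deposited, so they include the order of overexpression libraries that 47.6% of tested genes shared.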

How the data were processed

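The authors deposited TPM values for each of the 8 libraries. Their headers name log2, but the values are linear and each column sums to 1000000. TPM keeps no depth, so no counting intervals are given. The submitters' processing notes name Salmon (1.10.1), DESeq2 (1.37.4) and the build BDGP6, without a role. The authors' deposited comparison holds log2 fold changes and standard errors, a test score, p-values and, as its only signal column, a mean normalized count, per the file headers. Its replicates are the same libraries.

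Genes averaging 1 TPM or more were fitted as log2(TPM + 1) in limma 3.58.1 (R 4.3.3) with the group as the only term and a variance trend. P-values were adjusted by Benjamini-Hochberg over all 8898 genes. Single genes were compared by exact permutation tests in scipy 1.17.1. Figures used matplotlib 3.10.9. The alternatives were another pseudocount, other filters and scalings, a replicate block, library weights, each library left out, and the authors' test.

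The members, the lists and the tests were chosen with earlier results of these data known. Named were all members, called list genes or else the 3 most abundant of a list, and the 2 genes nearest to each tested member. For dome, 1 of these is not reported here. Positions came from Ensembl release 115. No sequence was used here.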

Additional observations from a re-analysis of the deposited data

Results flagged for a closer look

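In the overexpression group, 2 Turandot genes had a library far from the other 3. TotA was at 25.6 TPM in overexpression replicate 1, where the next library had 12.5 TPM, and TotC was at 14.4 TPM in the same library, where the next had 6.71 TPM. The fat body marker Lsp2 was at 60.4 TPM in that library and at 5.59 to 22.8 TPM in the other overexpression libraries. Its part in the Turandot values was not tested. Control libraries went higher than overexpression replicate 1 for both Turandot genes, to 33.1 TPM for TotA and 17.4 TPM for TotC. Chance alone sets apart about 1 in 20 groups of this size, and 62 groups were examined.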

How the results depend on the processing

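No member passed in limma with another pseudocount, with either other filter, with either scaling, or with a replicate block. The log2 fold change of hop was 0.23 and passed with library weights, and it was 0.08 to 0.22 when single libraries were left out. That of Socs36E was then 0.09 to 0.33. Members close to 0 changed sign: dome was at 0.04 with library weights and at -0.10 to 0.07 with single libraries left out, and Stat92E was at -0.03 with median-of-ratios scaling, with quantile normalization and in the authors' deposited table, and at -0.08 to 0.08 with libraries left out. The cause was not tested. The count of members below 1 TPM was 3 by the mean and by the highest library.

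Genes called higher numbered 552, and 2293 with library weights, 1113 in the authors' deposited test and 336 to 988 with libraries left out. Genes called lower numbered 194, and 626 with median-of-ratios scaling, 715 with quantile normalization, 804 with library weights, 893 in the authors' test and 99 to 248 with libraries left out. The higher share of calls was 74.0%, and 56.3% and 48.1% with the 2 scalings. With the replicate block they were 576 and 202. Deviations of same-numbered libraries correlated at 0.128, -0.0174, -0.134 and 0.144, and 3 of 8 libraries matched best with their own number, so the numbers were not taken to pair samples. These values do not address a split of replicates 1 and 2 from 3 and 4, which Socs36E and upd3 showed in both groups. The target vir-1 had the same split, and the escort and cap cell marker tj had it in the opposite direction. Such a split was not tested. Socs36E had an adjusted p of 0.298 in limma under the block, beside 0.618 without it. Under the block Tep2 had an adjusted p of 0.0554 in limma. With no filter Tep2 and Tep4 had 0.0665 and 0.0569, and with quantile normalization dpp had 0.0684. The log2 fold change of stwl was 1.17 to 1.36 with libraries left out and passed each time.

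Signs also turned for genes that did not pass. Stam was at -0.01 with both scalings and in the authors' table, TotX at -0.01 with library weights, and TotA at -0.24 in the authors' table. With libraries left out, the ranges were -0.03 to 0.12 for Su(var)2-10, -0.03 to 0.15 for ken, -0.07 to 0.12 for Stam, -0.54 to 0.49 for TotA, -0.78 to 0.21 for TotC and -0.56 to 0.28 for TotM. The planned search for STAT motifs in promoters was not run.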
